A study of Arabidopsis thaliana with 12 samples.

Results

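The transcripts described here are those of 43 Arabidopsis thaliana genes that were abundant in wild-type plants and whose mean level lay close to the wild-type mean in the tpt1 mutant. The array held 3439 spots, of which 692 were annotated to exactly 1 gene. Of these, 160 had a value above 0 in all 12 samples and a wild-type median in the top 25% of all spots. The members were chosen from these 160 by the measured values themselves, as those whose mean in tpt1 lay within 0.2 of the mean in the wild type (WT) on the quantile-normalized log2 scale. That gave 48 genes, of which 5 were left out by name, LHB1B2, NdhS, AT5G65220, ATSPS4F and AT1G24360. The other 3 genes named for leaving out, AT4G01310, AT3G58610 and FATB, lay below the top 25%.

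The study compared 6 samples of WT with 6 samples of the tpt1 mutant, both of ecotype Wassilevskija, numbered 1 to 6 in each group. The labels describe tpt1 as a mutant whose chloroplasts retain little of their activity to transport triose phosphate, and name no allele type or complemented line. Total RNA was measured. The tissue, the age and the growth conditions of the plants are not given in the labels, and neither is the meaning of a sample number, so the p-values below may measure only technical spread.

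In the light, the chloroplast exports fixed carbon as triose phosphate through a translocator of its inner envelope, in exchange for phosphate. Plants that lack this route can turn more of the carbon into starch in the chloroplast and export the products of its breakdown, by day as well as by night. Most chloroplast proteins are encoded in the nucleus, made in the cytosol and imported, so the state of the chloroplast can be read in part from nuclear transcripts. The 43 genes do not form a pathway. They include proteins of organelle RNA metabolism, chloroplast enzymes, mitochondrial membrane proteins, proteins of membrane traffic and regulators of protein turnover, and for 17 of them no role is stated here.

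The deposited intensities were not equally distributed in the groups. The median log2 intensity of all spots above 0 was -2.38 to -1.72 in the WT samples and -1.42 to -0.88 in the tpt1 samples, and 490 to 603 spots were at 0 in a WT sample against 385 to 476 in a tpt1 sample. Samples of neighbouring numbers resembled each other closely. Over the 43 genes, the median absolute difference between the members of the pairs 1 and 2, 3 and 4, and 5 and 6 was 0.11 to 0.15 in WT and 0.10 to 0.13 in tpt1 (log2). Between other numbers it was 0.17 to 0.61 in WT and 0.30 to 0.73 in tpt1. These 3 pairs of numbers are called sets 1, 2 and 3 below. If the samples of a set are repeat measurements, a group holds fewer than 6 independent samples. Of the 19 marker genes for mesophyll, epidermis, guard cells, vascular tissue, root, seed and pollen that were looked for, none had a spot of its own, so the tissue was not checked.

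The genes covered a wide range of levels. The WT median of the deposited intensity, on its scale that ends at 100, ran from 28.7 for AT3G26630 to 0.456 for AT3G04500, with a median of 0.779. The mean difference, tpt1 minus WT on the normalized log2 scale, ran from -0.20 to 0.20 by construction, with 26 genes above 0 and 17 below, and a median of 0.05 against 0.08 for all 2849 tested spots. In all 43 genes the values of WT and tpt1 overlapped, while the groups did not overlap in 10.3% of the spots with 12 values. None of the 43 was called different by limma at an adjusted p under 0.05, and none had an unadjusted p under 0.05, where 12.8% of all tested spots were called. With the sample number as a block, again none was called, against 31.8% of all tested spots. Since the rule chose the genes on this difference, these counts only describe the choice.

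**Figure D1:**
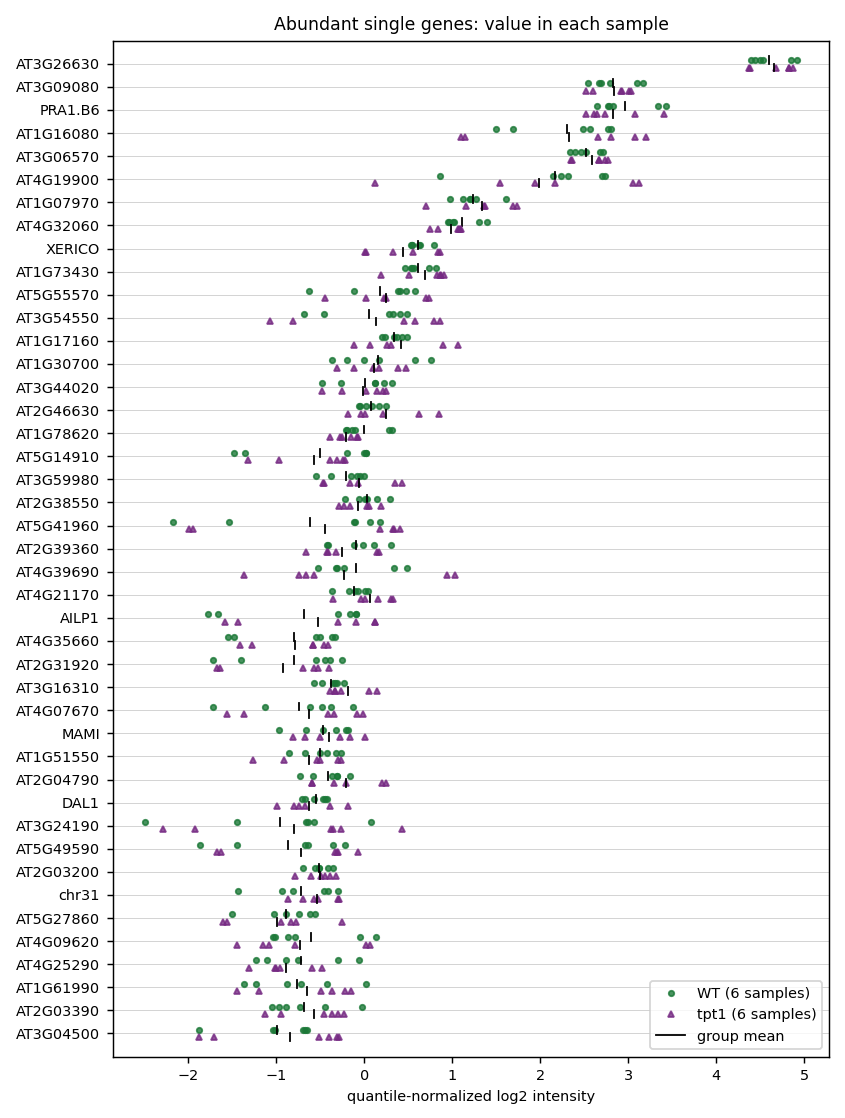
Quantile-normalized log2 intensity of each of the 43 genes (rows, ordered by WT median) in the 6 WT samples (circles) and the 6 tpt1 samples (triangles), with a bar at each group mean. In all 43 rows the ranges of the groups overlap, and rows such as AT5G41960 and AILP1 hold a pair of low samples in both groups.

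A mean difference near 0 does not by itself bound the change. The standard error of the difference ran from 0.12 to 0.55, with a median of 0.19. The 95% interval of the difference lay within -0.5 to 0.5 for 16 of the 43 genes and within -1 to 1, which is a change of 2-fold, for 39. It lay within the window of the rule, -0.2 to 0.2, for 0. The rule held the centre of each interval within 0.2 of 0, so these counts follow in part from the choice of the genes. Intervals of genes chosen in this way need not cover the true difference at 95%. With the neighbouring numbers averaged to 3 values per group, the interval lay within -1 to 1 for 29. With the sample number as a block, it lay there for 43. The intervals of single genes given here come from the unpaired fit. Variation that samples of the same number share across the genotypes widens them. Just inside the lower bound of the rule lay AT1G78620 at -0.196 and XERICO at -0.177, and just outside AT4G27250 at -0.2003 and AT5G66780 at -0.208. Just inside the upper bound lay AT2G04790 at 0.199 and AT3G16310 at 0.192, and just outside AT5G02710 at 0.208 and AT4G03150 at 0.217. The dimmest member, AT3G04500, had a WT median of 0.456, and AT5G17280, just under the top 25%, one of 0.449. The values below are the lowest, the median and the highest of the 6 samples of a group, on the normalized log2 scale unless stated.

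Of the 26 genes with a role stated, 4 act in the RNA metabolism of chloroplasts or mitochondria. AT3G26630, a pentatricopeptide repeat protein and thus one of a large family that binds organelle RNA, was the brightest of the 43 and ranked 23 among the 3439 spots by WT median. It was at 4.40, 4.51 and 4.92 in WT and at 4.37, 4.76 and 4.87 in tpt1. The difference was 0.05 (95% interval -0.25 to 0.36). The ranges of the groups nearly coincided, and the order of WT and tpt1 changed with the sample number, as given further below. AT4G21170, another pentatricopeptide repeat protein, was at -0.37, -0.09 and 0.04 in WT and -0.35, 0.08 and 0.32 in tpt1. It was the only one of the 43 in which all 6 samples of 1 genotype lay on the same side of the samples with the same number in the other. The gap in favour of tpt1 ran from 0.02 to 0.43 over the 6 numbers. The share of all spots with this trait is not given here, and 43 genes were looked through, so nothing is read from it. The genes AT4G09620 and AT1G61990, members of the mTERF family of organelle proteins, had differences of -0.13 (interval -0.78 to 0.53) and 0.12 (interval -0.49 to 0.73).

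Another 5 encode chloroplast proteins of metabolism and protein quality control. AT1G78620, a kinase of phytyl phosphate that serves the recycling of phytol into tocopherol, was at -0.21, -0.12 and 0.32 in WT and at -0.39, -0.20 and -0.07 in tpt1. Its difference of -0.20 (interval -0.49 to 0.10) was the lowest of the 43. The highest WT values were those of numbers 5 and 6, and over those numbers the difference was -0.52, against -0.04 in set 1 and -0.03 in set 2. A test of whether the difference varied between the sets, described further below, did not pass for AT1G78620 (moderated F-test, adjusted p = 0.197). AT1G17160, a ribokinase of the chloroplast, was at 0.20, 0.35 and 0.48 in WT and at -0.12, 0.28 and 1.07 in tpt1, which spread more widely than WT. AT2G38550, a fatty acid exporter family member of the plastid envelope, had a difference of -0.10 (interval -0.39 to 0.18). AT2G03390, an adaptor of the chloroplast Clp protease, had one of 0.12 (interval -0.35 to 0.58). AT3G24190, an ABC1-like kinase found in plastoglobules, was at -2.49, -0.65 and 0.08 in WT and -2.29, -0.37 and 0.43 in tpt1. Its interval was wide, from -0.92 to 1.23.

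There were 2 mitochondrial genes. AT4G32060, which encodes a calcium-binding regulator of mitochondrial calcium uptake, was among the 3 least variable of the 43, with a pooled standard deviation (SD) within groups of 0.17. It was at 0.95, 1.01 and 1.39 in WT and at 0.74, 1.07 and 1.10 in tpt1 (difference -0.12, interval -0.38 to 0.14). AT4G39690, a subunit of the complex that shapes the cristae of the inner membrane, varied more. It was at -0.53, -0.27 and 0.49 in WT and at -1.36, -0.62 and 1.03 in tpt1, where the range was wider on both sides.

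Of the 4 genes of membrane traffic and the nuclear pore, PRA1.B6, a prenylated RAB acceptor, was the brightest. It was at 2.65, 2.80 and 3.43 in WT and at 2.52, 2.69 and 3.40 in tpt1 (difference -0.13, interval -0.53 to 0.26). AT1G73430, a subunit of the Golgi tethering complex COG, was at 0.46, 0.55 and 0.82 in WT and 0.19, 0.84 and 0.90 in tpt1. Its difference was 0.09 (interval -0.22 to 0.39), although the medians lay further apart than the means. AT3G16310, a nucleoporin, was at -0.57, -0.34 and -0.23 in WT and at -0.39, -0.30 and 0.15 in tpt1 (difference 0.19, interval -0.10 to 0.48). MAMI, a mannitol-induced membrane protein, had a difference of 0.07 (interval -0.33 to 0.46).

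A further 6 belong to signalling and protein turnover. AT3G06570, an F-box protein with kelch repeats, was bright and even. It was at 2.34, 2.49 and 2.71 in WT and at 2.35, 2.67 and 2.77 in tpt1, with a pooled SD of 0.17 and the narrowest interval of the 43, from -0.17 to 0.33. AT2G03200, an aspartic protease, had the smallest pooled SD of the 43, at 0.15. It was at -0.70, -0.52 and -0.36 in WT and at -0.78, -0.47 and -0.32 in tpt1, a difference of 0.01 (interval -0.27 to 0.28). XERICO, a RING-type protein that raises abscisic acid levels when overexpressed, was at 0.53, 0.58 and 0.80 in WT and at 0.01, 0.44 and 0.86 in tpt1. The WT samples of XERICO lay close together, while the tpt1 samples spanned the WT range on both sides (difference -0.18, interval -0.53 to 0.18). The F-box protein gene AT1G51550 and the receptor-like kinase gene AT2G39360 had differences of -0.12 and -0.16. AT4G07670, of the glutamate carboxypeptidase family, was at -1.73, -0.55 and -0.13 in WT and at -1.57, -0.38 and -0.01 in tpt1.

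The last 5 genes with a role stated were AILP1, chr31, AT1G30700, AT4G19900 and AT3G04500. AT4G19900, of a glycosyltransferase family, was at 0.86, 2.28 and 2.74 in WT and at 0.13, 2.05 and 3.13 in tpt1. Sample 4 was the lowest in both groups, and the pooled SD of 0.92 was among the 3 largest of the 43. AILP1, an aluminium-induced protein, was at -1.77, -0.23 and -0.10 in WT and at -1.58, -0.20 and 0.13 in tpt1. The chromatin remodelling gene chr31 had a difference of 0.18 (interval -0.24 to 0.61), AT1G30700, of the berberine bridge enzyme family, one of -0.04 (interval -0.49 to 0.41), and AT3G04500, an RNA-binding protein, one of 0.14 (interval -0.56 to 0.85). AT3G04500 was at -1.88, -0.86 and -0.65 in WT and at -1.89, -0.46 and -0.28 in tpt1.

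For 17 genes no role is stated: AT3G09080, AT1G16080, AT1G07970, AT5G55570, AT3G54550, AT3G44020, AT2G46630, AT5G14910, AT3G59980, AT5G41960, AT4G35660, AT2G31920, AT2G04790, AT5G49590, AT5G27860, AT4G25290 and DAL1. The spot annotated DAL1 carries a gene identifier that has no match in the reference table, where another gene has that symbol. AT3G09080 was at 2.55, 2.74 and 3.17 in WT and at 2.53, 2.93 and 3.04 in tpt1, and AT1G07970 at 0.97, 1.2 and 1.61 in WT and 0.70, 1.37 and 1.73 in tpt1. AT1G16080 was at 1.5, 2.53 and 2.81 in WT and at 1.10, 2.73 and 3.2 in tpt1. The groups of AT3G09080 covered nearly the same range, the tpt1 samples of AT1G07970 spanned its WT range on both sides, and the groups of AT1G16080 had 2 low samples each. The differences of AT3G09080, AT1G07970 and AT1G16080 were 0.01, 0.11 and 0.02. AT5G55570 was at -0.63, 0.39 and 0.58 in WT and at -0.45, 0.23 and 0.74 in tpt1, and AT3G54550 at -0.69, 0.30 and 0.49 in WT and -1.07, 0.51 and 0.86 in tpt1, with differences of 0.07 and 0.08. The most variable gene of the 43 was AT5G41960, with a pooled SD of 1.09. It was at -2.18, -0.11 and 0.17 in WT and at -2.0, 0.25 and 0.41 in tpt1, a difference of 0.17 (interval -1.02 to 1.35). Between samples of the same number, tpt1 minus WT ran from -0.41 to 0.51 in this gene. The differences of the 17 genes ran from -0.17 for AT4G25290 to 0.20 for AT2G04790.

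Whether these genes count as unchanged depended on the scale. On the deposited scale 37 of the 43 were above 0 and 6 below, from -0.44 for AT3G26630 to 0.89 for chr31, with a median of 0.59. The same median over all 2849 tested spots was 0.86, and 42 of the 43 lay below it. With each array centred on its median, 42 of the 43 were below 0 and chr31 alone above it at 0.03, with a median of -0.28 and a lowest value of -1.30 for AT3G26630. The difference stayed within 0.2 of 0 for 5 genes on the deposited scale and for 16 with median centring. On the deposited scale limma called 17 genes higher and 0 lower in tpt1, where 46.4% of all tested spots were called higher. With median centring it called 0 higher and 9 lower, where 12.5% of all spots were called lower. The rule used the same contrast, so nothing is read from these shares.

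**Figure D2:**
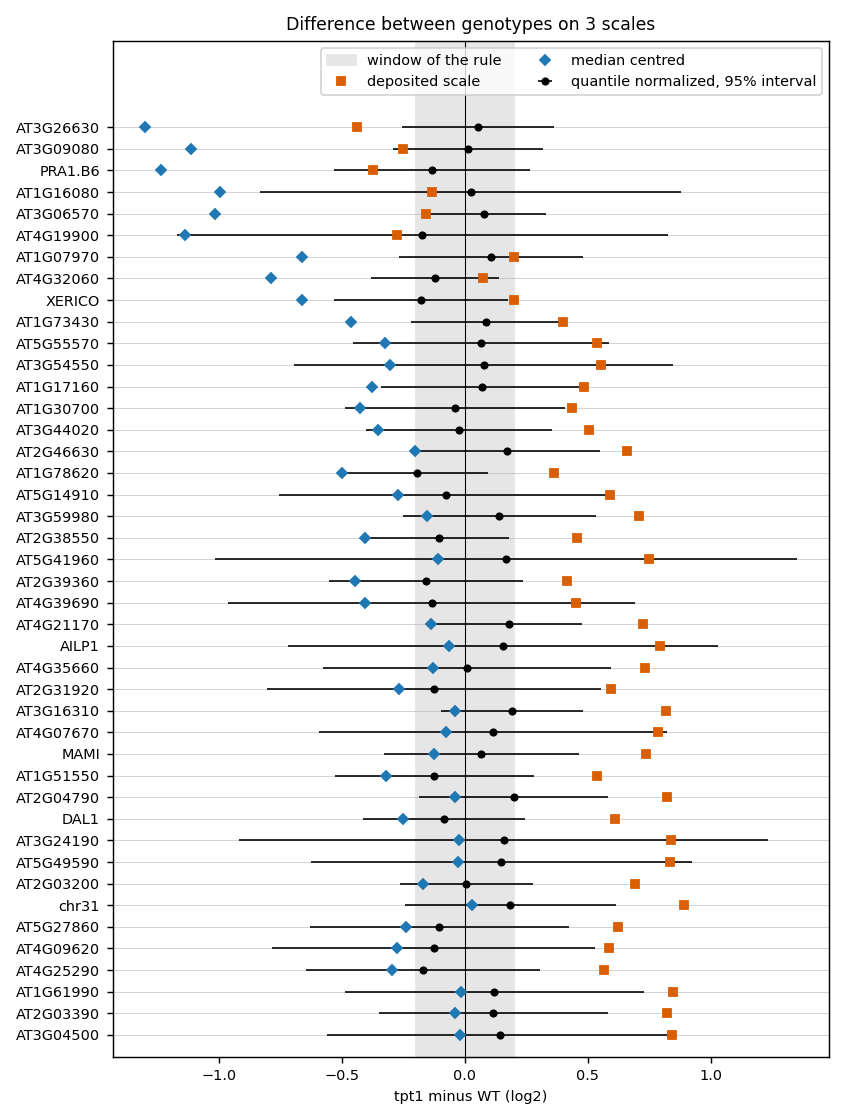
Difference tpt1 minus WT (log2) of each of the 43 genes after quantile normalization (circles, with 95% intervals), on the deposited scale (squares) and with median centring (diamonds), ordered by WT median. The shaded band is the window of the rule, -0.2 to 0.2. The circles lie inside the band, while 5 squares and 16 diamonds do.

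The deposited change of the 43 genes followed their brightness. The 7 brightest, with WT medians of 2.32 to 28.7, had deposited differences of -0.44 to 0.20 with a median of -0.25. The 12 next, with WT medians of 0.828 to 2.03, ran from 0.07 to 0.71 with a median of 0.50, and the 24 dimmest, with WT medians of 0.456 to 0.81, from 0.42 to 0.89 with a median of 0.73. Across the 43 genes, the Spearman correlation of the WT median with the deposited difference was -0.83, a description across genes that share the same 12 arrays. The WT values enter both measures, and the rule held the normalized difference near 0. The correlation therefore follows at least in part from the choice of the genes, and nothing is read from it. The rule bounds the mean normalized difference, so that the mean deposited change of a gene tends to lie near that of spots of like brightness. It does not fix the rank in each sample. AT5G41960, for example, lay between percentiles 43.8 and 91.9 of the spots over the 12 samples. The deposited intensities of AT3G26630 were 26.1, 28.7 and 31.6 in WT and 12.2, 26.1 and 31.7 in tpt1. Those of AT2G03200 were 0.459, 0.539 and 0.698 in WT and 0.819, 0.891 and 1.0 in tpt1. Thus the deposited values of AT3G26630 overlapped between the groups and those of AT2G03200 did not, while their normalized differences were 0.05 and 0.01. In all, the deposited values of 10 of the 43 genes did not overlap between the groups, against 32.5% of the spots with 12 values.

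**Figure D3:**
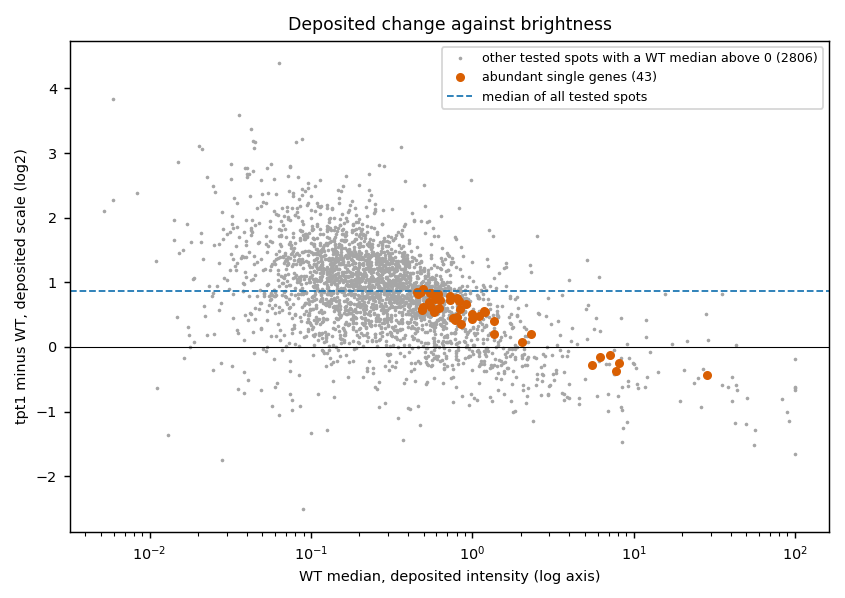
Difference tpt1 minus WT on the deposited scale (log2) against the WT median of the deposited intensity (log axis) for the 2849 tested spots, with the 43 genes as large points and the median of all tested spots, 0.86, as a dashed line. The 43 genes run along a band that falls from 0.89 among the dimmest to -0.44 for AT3G26630.

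The variation between sample numbers was not used by the rule and could be tested. After the group had been fitted, an F-test over the sample number passed an adjusted p of 0.05 for 22 of the 43 genes, where 37.3% of all tested spots passed. The means of the 6 numbers spanned 0.69 to 2.46 on the log2 scale in these 22 genes, with a median of 1.30. In 15 of the 22 the mean of set 3 lay below that of sets 1 and 2, and in 7 above it. The labels do not say what a number marks, so the source of this variation was not tested. The test takes the 6 numbers as independent. If neighbours are repeats, its p-values are too small.

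The smallest adjusted p-values of this test belonged to AT5G41960, AILP1, AT5G49590, AT4G07670, AT4G19900 and AT2G31920. All p-values of this F-test refer to the 6 numbers together. They are no test of set 3 against sets 1 and 2, a contrast chosen after the values had been seen. AT5G41960 ranged from -0.12 to 0.17 in WT samples 1 to 4 and was at -2.18 and -1.54 in WT 5 and 6. In tpt1 it ranged from 0.18 to 0.41 in samples 1 to 4 and was at -2.0 and -1.95 in tpt1 5 and 6 (adjusted p = 0.000196). The level dropped by 1.86 in WT and by 2.28 in tpt1 (log2), a mean of 4.21-fold. AILP1 ranged from -0.30 to -0.10 in WT samples 1 to 4 and was at -1.77 and -1.66 in WT 5 and 6, and the tpt1 samples split in the same way, at -0.30 to 0.13 against -1.58 and -1.44 (adjusted p = 0.000196). AT5G49590 was at -1.87, -0.65 and -0.22 in WT and at -1.68, -0.32 and -0.07 in tpt1, and AT2G31920 at -1.72, -0.50 and -0.25 in WT and -1.68, -0.64 and -0.40 in tpt1. In both, and in AT4G07670, the lowest samples were numbers 5 and 6 of each group. The mean fold drops of AT5G49590, AT4G07670 and AT2G31920 in set 3 were 2.46, 2.20 and 2.19. Their adjusted p-values in the F-test over the sample number were 0.000717, 0.00114 and 0.00138.

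Other genes were higher in set 3, where these were lower. Their p-values too are those of the F-test over all numbers. AT4G19900 was at 2.70 and 2.74 in WT 5 and 6, against 0.86 to 2.31 in WT 1 to 4, and at 3.13 and 3.06 in tpt1 5 and 6, against 0.13 to 2.16 in tpt1 1 to 4 (adjusted p = 0.00132). Number 4 was its lowest sample in both groups, at 0.86 in WT and 0.13 in tpt1. The p-value of AT4G19900 therefore does not measure the rise in set 3 alone. AT4G39690 was higher in set 3 by 0.76 in WT and 1.82 in tpt1 (adjusted p = 0.0103), and AT4G09620 by 0.97 and 1.16 (adjusted p = 0.00241). In both genotypes, all values of numbers 5 and 6 lay below all those of numbers 1 to 4 in 15 of the 43 genes, where this held for 16.9% of the spots with 12 values. They lay above in 10, against 17.7% of such spots. These counts were made after the values had been seen and carry no test. On the deposited scale the counts were 21 below and 5 above, against 29.6% and 5.29% of such spots, and there the median of all spots was also lower in numbers 5 and 6 than in numbers 1 to 4 of the same genotype.

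**Figure D4:**
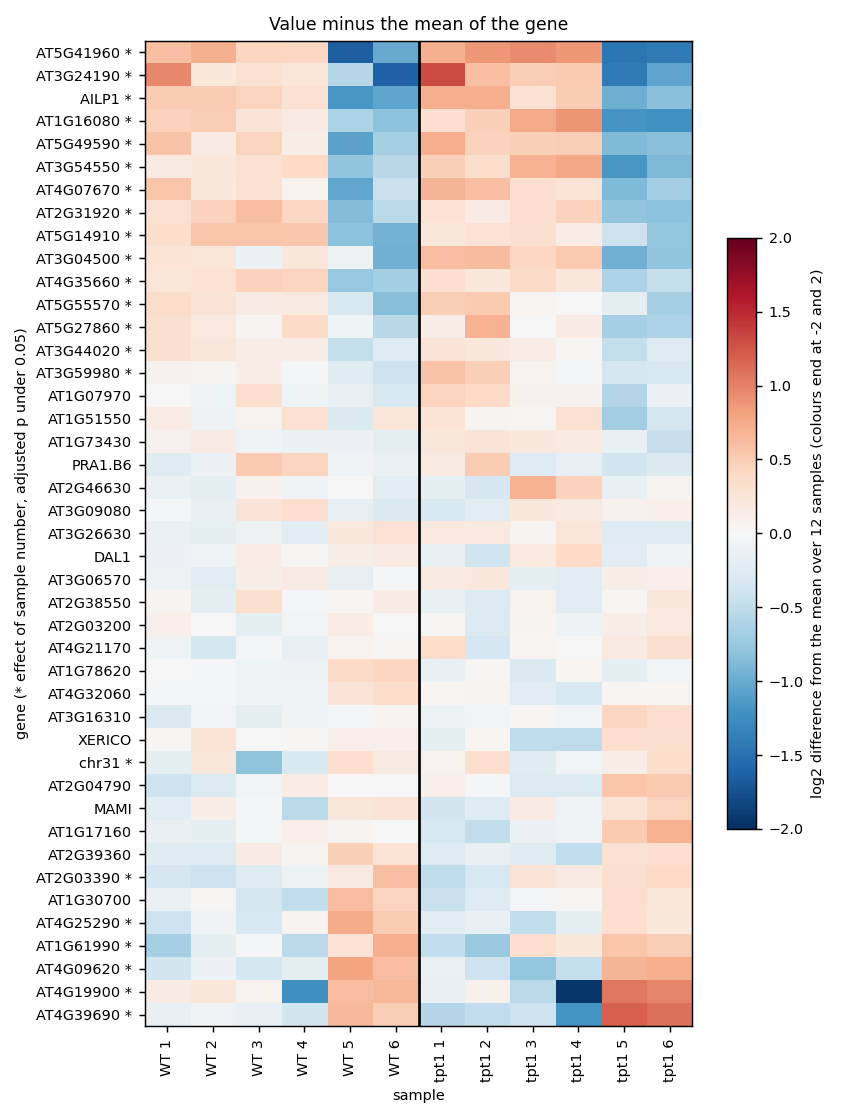
Value of each of the 43 genes in each of the 12 samples minus the mean of the gene over the samples (quantile-normalized log2, red above and blue below), with WT samples left and tpt1 samples right of the black line and genes ordered by the shift of numbers 5 and 6. An asterisk marks the 22 genes with an adjusted p under 0.05 for the sample number. The top rows are blue and the bottom rows red in numbers 5 and 6 of both genotypes.

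The difference between the genotypes was also compared between the 3 sets. With 12 values per gene, this interaction does not depend on the mean difference that the rule used. It passed an adjusted p of 0.05 for 9 of the 43 genes, where 6.67% of the 2383 spots with 12 values passed. Among the other abundant genes it passed for 9 of the 49 above the window of the rule and for 9 of the 63 below it, so that the share was near that of other bright spots. The test rests on the spread between neighbouring samples, and if these are repeats, the p-values are too small for a statement on the genotypes. The sets were defined from the likeness of the samples and not from the labels. Without tpt1 5 the count was 5 and without a trend in the prior variance it was 3. The shares of all spots in these fits are not given here.

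The 9 genes were AT1G16080, AT3G26630, PRA1.B6, AT3G06570, AT1G17160, AT2G04790, AT3G09080, XERICO and AT1G30700. AT3G26630 was at 4.40 to 4.53 in WT 1 to 4 and at 4.85 and 4.92 in WT 5 and 6, while tpt1 was at 4.68 to 4.87 in samples 1 to 4 and at 4.37 and 4.38 in 5 and 6. The differences in the sets were 0.36, 0.31 and -0.51 (adjusted p = 0.00274), which average to the value near 0 that the rule required. PRA1.B6 differed by 0.53 in set 1, -0.70 in set 2 and -0.23 in set 3 (adjusted p = 0.00327). AT1G16080 differed by -0.06, 0.61 and -0.47 (adjusted p = 0.00231) and was the only gene of the 9 that also passed the test of the sample number. AT3G06570 differed by 0.36, -0.34 and 0.21 (adjusted p = 0.00526). AT1G17160, the ribokinase, differed by -0.24, -0.13 and 0.58 (adjusted p = 0.0141) and AT2G04790 by 0.38, -0.32 and 0.54 (adjusted p = 0.0212). AT2G04790 was at -0.73, -0.34 and -0.17 in WT and at -0.59, -0.27 and 0.25 in tpt1, where the highest samples were numbers 5 and 6.

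**Figure D5:**
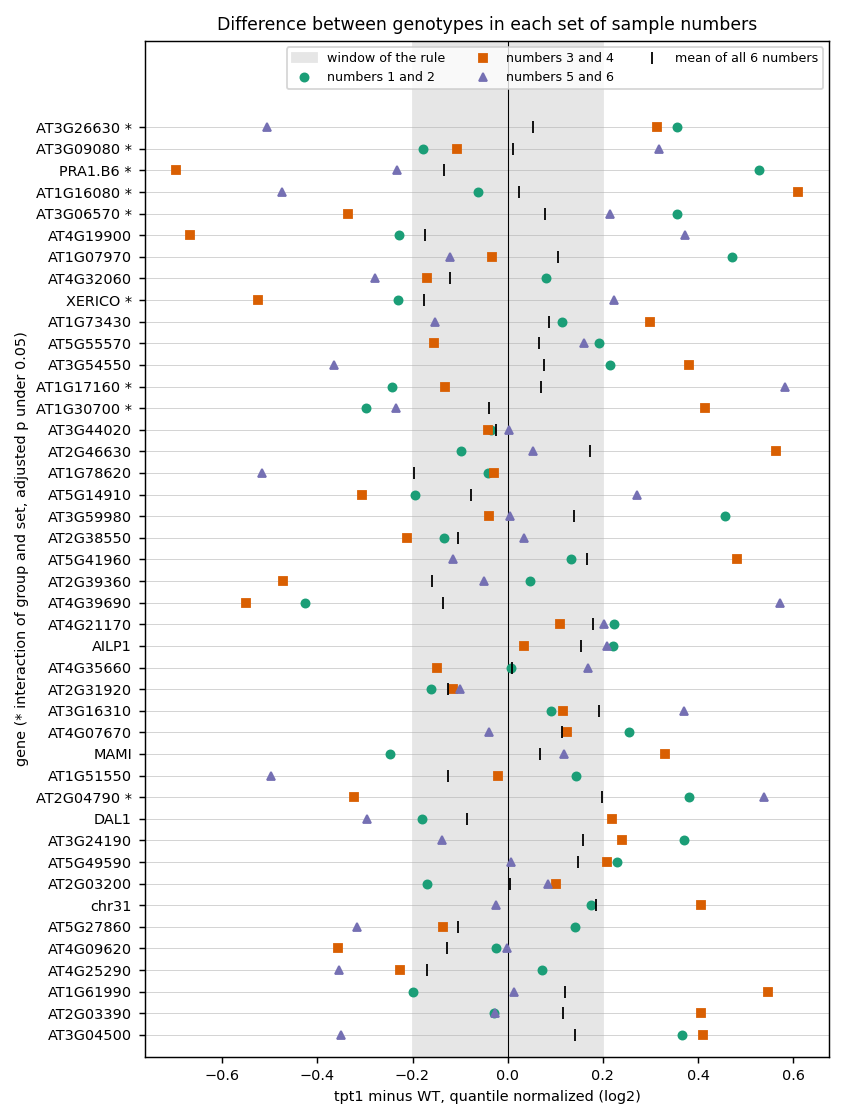
Difference tpt1 minus WT (quantile-normalized log2) of each of the 43 genes in numbers 1 and 2 (circles), 3 and 4 (squares) and 5 and 6 (triangles), with a bar at the mean of all 6 numbers. The shaded band is the window of the rule, -0.2 to 0.2, and an asterisk marks the 9 genes with an adjusted p under 0.05 for the interaction. In 5 genes all 3 points lie inside the band.

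Over all 43 genes, the differences in the single sets ran from -0.43 to 0.53 in set 1, from -0.70 to 0.61 in set 2 and from -0.52 to 0.58 in set 3, with medians of 0.07, -0.03 and 0.00. The 3 differences of a gene average to the value that the rule held within 0.2 of 0. These medians, and the count that follows, thus depend in part on the choice of the genes. The differences of all 3 sets lay within 0.2 of 0 in 5 genes, AT5G55570, AT3G44020, AT4G35660, AT2G31920 and AT2G03200. AT3G44020 was the most even in this respect, at -0.04, -0.04 and 0.00 (interval of its overall difference -0.40 to 0.35). Its 12 values still followed the sample number, from -0.48 to 0.31 (adjusted p = 0.00682).

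The spread within groups of the 43 genes was compared with that of other spots. Their pooled SD had a median of 0.34 and ran from 0.15 to 1.09. It had a median of 0.38 in the 49 abundant genes above the window, 0.39 in the 63 below it, and 0.51 over all tested spots. The sample number passed its test for 24 of the 49 and 29 of the 63, so that neither measure is given as particular to the 43. The SD was larger in tpt1 than in WT in 30 of the 43 genes, against 39 of the 49, 45 of the 63 and 44.9% of all tested spots. A pooled SD above 0.5 was found in 15 of the 43, against 12 of the 49, 21 of the 63 and 51.6% of all tested spots.

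Of 23 genes widely used as references for transcript measurements in Arabidopsis, 1 had a spot of its own, AT2G28390, which encodes a SAND family protein. It was no member, since its WT median of 0.43 lay below the top 25%. It was at -1.88, -1.01 and -0.81 in WT and at -1.90, -1.01 and -0.89 in tpt1, a difference of -0.07 (interval -0.59 to 0.46). On the deposited scale its difference was 0.71 and with median centring -0.15.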

How the data were processed

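The values analysed were spot intensities of 12 array samples (6 WT, 6 tpt1), which the authors deposited on a linear scale that ends at 100. The sources used here do not give how they were read or corrected, so their scale, centring and treatment of low signals stay unknown. Precision is limited by the number of arrays. Readings of 0 were treated as missing, the others taken as log2 and the arrays quantile normalized. The 2849 spots with at least 4 values above 0 in each group were tested with limma 3.58.1 (lmFit, eBayes with a trend) in R 4.3.3. P-values were adjusted over all of these spots (Benjamini-Hochberg), at a threshold of 0.05. The sample number (given the group) and the interaction of group and set were tested with moderated F-tests, the latter on the 2383 spots with 12 values. Both were tested on simulated data with independent samples. Those data held neither the likeness of neighbouring numbers nor the pairing, so they do not show how the tests behave with either. Genes were named from the platform annotation and a reference table of assembly TAIR10.1, used for names only, in which 42 of the 43 genes matched a locus.

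The members and the lists were chosen with earlier results of these data known. Every member is named, and sample values are given for the 12 brightest, the 3 least and the 3 most variable, up to 6 with the smallest adjusted p in each F-test and those next to the bounds of the rule. Roles were assigned from general knowledge after the members were known. Samples of the same number correlated at 0.47 to 0.61 after subtraction of the group means, and each of the 12 correlated best with its own number, so the numbers pair the samples by the rule used. The unpaired fit stayed the main one, and the intervals of single genes come from it. It uses neither the pairing nor the likeness of neighbours. With the sample number as a block, the interval lay within -1 to 1 for 43 genes, against 39. With neighbours averaged, the interval of AT3G06570 was -0.40 to 0.56, against -0.17 to 0.33. Alternatives were other scales, a pseudocount of 0.1, filters, blocks, other windows and leaving out samples.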

Additional observations from a re-analysis of the deposited data

Results flagged for a closer look

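In 3 of 86 groups of 6 values a sample stood apart from the others by Dixon's test, where 4.3 would be expected for independent values. Neighbouring samples were alike, so this expected count may not hold here. In WT 4, AT4G19900 was at 0.86, while the other 5 WT samples ran from 2.15 to 2.74. XERICO was at 0.80 in WT 2 against 0.53 to 0.63. AT3G04500 was at -1.88 in WT 6 against -1.04 to -0.65.

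By the moderated F-test, the interaction of group and set passed for 9 genes, against 6.67% of the spots with 12 values. It passed for 9 of the 49 abundant genes above the window of the rule and for 9 of the 63 below it. Without a trend in the prior variance it passed for 3 of the 43, and the share of all spots in that fit is not given here. The sets come from the likeness of the samples. If neighbours are repeats, the p-values here are too small for a statement on the genotypes. The adjusted p was 0.00231 for AT1G16080, 0.00274 for AT3G26630, 0.00327 for PRA1.B6, 0.00526 for AT3G06570 and 0.0141 for AT1G17160. It was 0.0212 for AT2G04790, 0.0295 for AT3G09080, 0.0409 for XERICO and 0.0478 for AT1G30700. AT3G09080 differed by -0.18, -0.11 and 0.32 in sets 1, 2 and 3, XERICO by -0.23, -0.52 and 0.22, and AT1G30700 by -0.30, 0.41 and -0.23.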

How the results depend on the processing

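The number of genes that met the rule was 43, and 15 with a window of -0.1 to 0.1 and 67 with one of -0.3 to 0.3. It was 35 on the deposited scale and 35 with median centring, of which only 5 and 16 were among the 43. With 1 sample left out it was 35 to 45, and 13 of the 43 met the rule in all 12 of these fits. Without sets 1, 2 and 3, a choice made after seeing the data, 28, 28 and 22 of the 43 met it. The count of the 43 called different between the genotypes was 0 in the unpaired fit, where 12.8% of all tested spots were called. It was 17 on the deposited scale and 9 with median centring, against 49% and 17.2% of all tested spots. It was 0 with the sample number as a block, with a pseudocount, with either filter, without a trend, with a random block, with averaged neighbours, and in every fit that left out 1 sample (0 to 0). The median difference of the 43 was 0.05, 0.59 on the deposited scale, -0.28 with median centring and -0.00417 with the pseudocount, and ran from -0.034 to 0.067 when 1 sample was left out. The sample number passed for 22 genes, where 37.3% of all tested spots passed, and for 16 to 21 when 1 sample was left out. It passed for 28 with median centring and for 16 without a trend and with the pseudocount. The interaction passed for 9 genes, where 6.67% of the spots with 12 values passed. It passed for 3 without a trend in the prior variance, and for 5 to 9 when 1 sample was left out, the 5 without tpt1 5. For the alternatives of both F-tests the share of all spots is not given here. Their counts show only that the number of passing genes changed with the setting. The interval lay within -1 to 1 for 39 genes and for 17 on the deposited scale, while the replicate block gave 43. The count of 39 follows in part from the rule, which held the normalized difference near 0. Median centring gave 31, the pseudocount 40, no trend 38, a random block 37 and averaged neighbours 29. The cause of these shifts was not tested. The number of arrays and the likeness of neighbouring samples limit the precision.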
